A study of Mus musculus with 20 samples.

Results

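Tex15 knockout male germ cells of the mouse were compared with heterozygous ones at embryonic day 16.5 (e16.5). The comparison takes every library whose labels name that age, which is 6 of the 20 libraries of the study: 3 heterozygous (Tex15+/-) and 3 knockout (Tex15-/-). Both genotypes were of mixed strain background and male, and their germ cells were isolated by flow sorting on green fluorescent protein (GFP). The heterozygous cells carry 1 intact copy of Tex15, so no library here comes from a wild-type animal. Which promoter drives GFP and which part of Tex15 was removed are not given in the sources used here. RNA was isolated with a kit for very small samples and amplified into libraries before sequencing. The study's design text calls the replicates biological, without saying whether animals were pooled or shared a litter. The study sampled the same genotypes at embryonic day 18.5 (e18.5), with 3 libraries each, and those libraries serve below as a second set.

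In late fetal life male germ cells, called prospermatogonia, have stopped dividing and rewrite their DNA methylation. Retrotransposons, mobile elements that copy themselves through RNA, are then silenced by the piRNA pathway, in which small RNAs bound to PIWI proteins find element transcripts and direct repressive marks to the elements' DNA. TEX15 is a germ cell protein known for a role in this silencing and in meiosis. Long interspersed elements (L1) and intracisternal A particles (IAP), a group of endogenous retroviruses, are the elements best known for escaping control when the pathway fails.

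Each library held 22590765 to 29674914 counts, of which 9606292 to 13885560 fell in rows of genes and the rest in rows of repeat names. Totals were 24173580, 22590765 and 23635486 in heterozygous and 26370031, 25393953 and 29674914 in knockout libraries. Counts in gene rows were 11830399, 9606292 and 9629976 against 12784430, 13885560 and 13559770. Both were higher in every knockout library than in every heterozygous one. The part of these higher counts in the values of scarce transcripts was not tested. All levels below are in CPM, the counts a row would have if its library held 1000000 counts in gene rows, scaled between libraries by their genes, and levels of different genes are not compared because transcript length was not used. The germ cell label was met by its markers: Mael lay between 1388 and 1655 CPM, Tdrd1 between 1804 and 1899 CPM, and Ddx4 between 468 and 679 CPM in all 6 libraries. RNA of somatic cells was present as well: the summed level of 24 stroma markers was 548 to 830 CPM and that of 12 Leydig cell markers 70.0 to 162 CPM, with 2 of the 12, Insl3 and Ren1, at 0 in all libraries. Correlations of log2 levels over genes were 0.953 to 0.971 among heterozygous, 0.973 to 0.978 among knockout and 0.941 to 0.982 across genotypes, so the libraries did not separate by genotype. The pair most alike was heterozygous replicate 1 with knockout replicate 2. Heterozygous replicate 3 stood farthest from the others, and its level of Dppa3, a gene of primordial germ cells, was 49.4 CPM against 666 and 244 CPM in the other heterozygous libraries and 433, 856 and 510 CPM in the knockout.

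Tex15 was the only gene whose level changed by the main test at e16.5. It was at 1909, 1807 and 1587 CPM in the heterozygous libraries and at 3.23, 3.61 and 4.83 CPM in the knockout libraries. The genotypes were far apart, which matches the labels of all 6 libraries. Tex15 fell by 8.82 on the log2 scale (SE 0.21, a 452-fold lower level; edgeR quasi-likelihood test, adjusted p = 2.11e-10). Of 16384 genes tested, 1 passed the adjusted threshold of 0.05, a share of 0.0061%. At an unadjusted p under 0.05, 471 genes were higher (2.87%) and 795 lower (4.85%) in the knockout, together 7.73%. All 3 knockout libraries lay above all heterozygous ones for 1014 genes (6.19%) and below them for 1086 genes (6.63%). DESeq2 called 22 genes (0.134%), 13 higher and 9 lower, on the same counts.

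The next genes were chosen from those that did not pass, whose genotypes did not overlap and whose mean log2 CPM was above 3. Among them Fsd1l had the smallest p on the higher side. Fsd1l, named for its fibronectin type III and SPRY domains, was at 83.0, 74.7 and 73.5 CPM in heterozygous and 124, 132 and 132 CPM in knockout libraries. The groups did not overlap, as the choice required, and the libraries within each were close together. The difference was 0.74 on the log2 scale (SE 0.13; edgeR adjusted p = 0.290), and DESeq2 called it (adjusted p = 0.00164).

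Gpr179 and Impg2, also on the higher side, did not pass at e16.5. Gpr179, a receptor of retinal bipolar cells, was at 12.2, 10.9 and 8.26 CPM in heterozygous and 24.9, 18.03 and 25.5 CPM in knockout libraries, a 2.18-fold difference (edgeR adjusted p = 0.629). Impg2, a proteoglycan of the matrix around photoreceptors, was at 21.96, 18.1 and 24.2 CPM against 52.99, 30.4 and 65.5 CPM, a 2.32-fold difference (edgeR adjusted p = 0.629). Neither gene's genotypes overlapped, as the choice of genes required, and both were called by DESeq2 (adjusted p = 0.0115 and 0.00574). Both rose at e18.5, where Gpr179 was 2.24 and Impg2 1.75 higher on the log2 scale (edgeR adjusted p = 2.60e-07 and 3.26e-06).

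The other named genes with higher knockout values were Rspry1 (a RING and SPRY domain protein), Rsrc1 (a splicing-related protein), Sdc4 (the heparan sulfate proteoglycan syndecan 4), Rnf114 (a ubiquitin ligase), Cyp4a12b (a cytochrome P450), Irak2 (a kinase of interleukin 1 and Toll-like receptor signalling) and Pnpt1 (the mitochondrial polynucleotide phosphorylase). Their differences ran from 0.63 for Rnf114 to 1.16 for Cyp4a12b on the log2 scale, and each had an edgeR adjusted p of 0.629. DESeq2 called Rspry1, Rsrc1, Sdc4 and Cyp4a12b (adjusted p = 0.0156, 0.0176, 0.0499 and 0.0499) and not Rnf114, Irak2 or Pnpt1. Cyp4a12b was at 14.6, 20.1 and 8.17 CPM in heterozygous and 31.9, 25.7 and 37.8 CPM in knockout libraries. Sdc4 was at 443, 337 and 236 CPM against 525, 588 and 721 CPM. Cyp4a12b also rose at e18.5, by 3.02 on the log2 scale (edgeR adjusted p = 1.76e-05), whereas for Sdc4 the e18.5 difference was 0.14 (edgeR adjusted p = 0.834).

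Some scarce transcripts showed larger folds. They were chosen after their values were seen. Phf11b, a PHD finger gene, was at 0.784, 0.609 and 0.665 CPM in heterozygous and 7.01, 4.86 and 4.83 CPM in knockout libraries. That 7.97-fold difference did not pass the main test (log2 difference 2.995, SE 0.42; edgeR adjusted p = 0.0947). DESeq2 called it (adjusted p = 3.07e-05), and so did edgeR with no filter on low counts (adjusted p = 0.0181) or without heterozygous replicate 1 (adjusted p = 0.0246). It did not pass by limma (adjusted p = 0.0875). Nor did it by edgeR with a block for replicate number (adjusted p = 0.200) or the stroma marker level as a covariate (0.999). Omitting heterozygous replicates 2 or 3 gave an edgeR adjusted p of 0.577 and 0.0796. Omitting knockout replicates 1, 2 or 3 gave an edgeR adjusted p of 0.632, 0.180 and 0.585. Phf11b rose at e18.5 as well, from 0.919, 0.893 and 1.27 CPM to 4.25, 4.93 and 5.86 CPM (log2 difference 2.28; edgeR adjusted p = 0.00995).

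Apoh, a plasma glycoprotein gene, was at 4.45, 5.79 and 1.61 CPM in heterozygous and 16.9, 12.5 and 16.5 CPM in knockout libraries (log2 difference 1.96; edgeR adjusted p = 0.482). The olfactory receptor gene Olfr419 lay at or below 0.285 CPM in every heterozygous library and at 4.33, 2.51 and 1.90 CPM in the knockout (edgeR adjusted p = 0.290). Cd93, a receptor gene of endothelium, was at 0.697, 1.12 and 2.47 CPM against 6.54, 3.21 and 8.71 CPM (edgeR adjusted p = 0.629). DESeq2 called Apoh, Olfr419 and Cd93 at e16.5, and edgeR called them higher at e18.5 (adjusted p = 1.43e-06, 1.59e-06 and 0.00431).

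**Figure D1:**
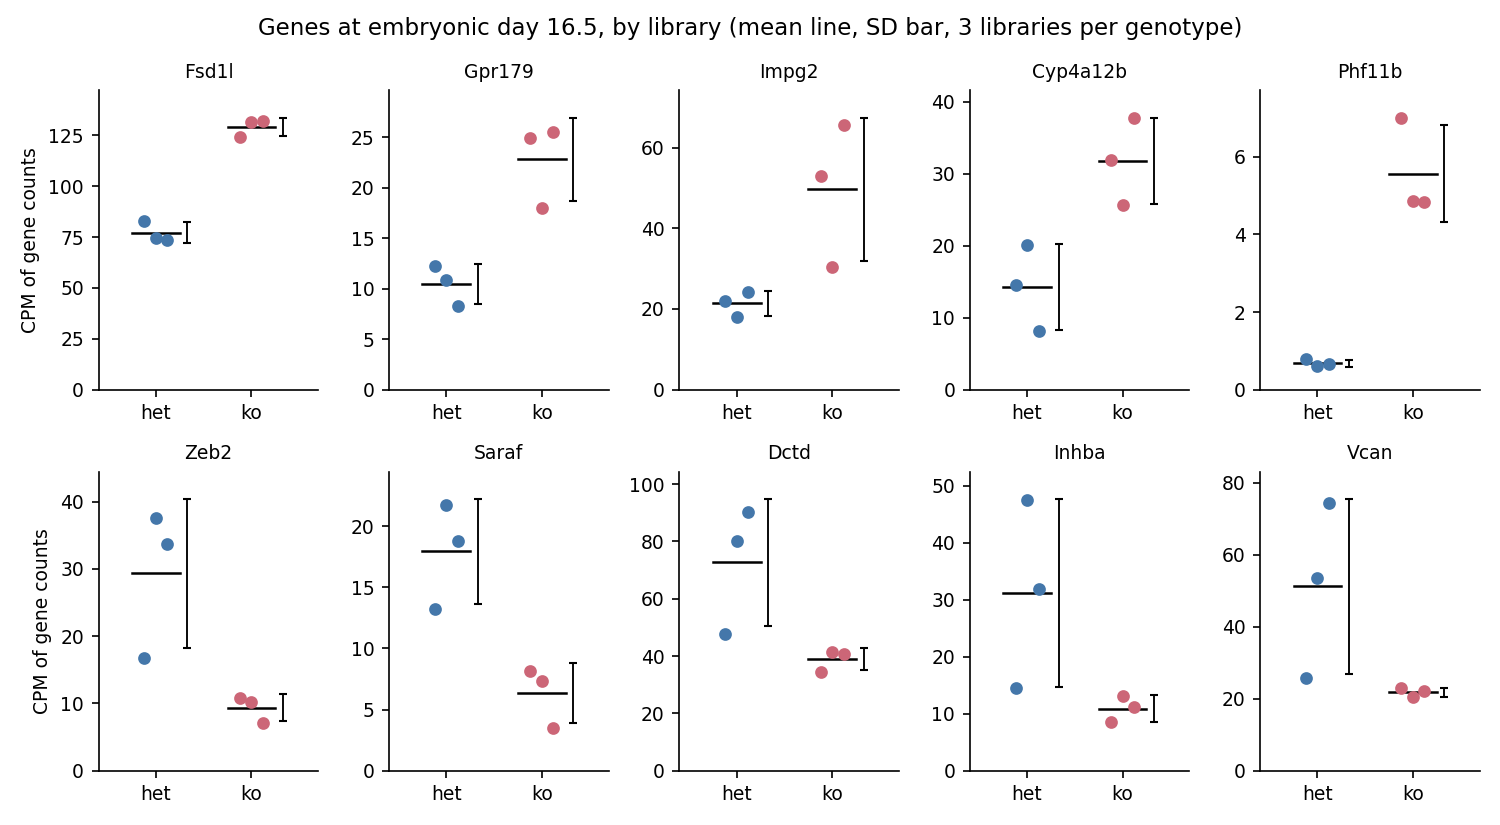
Levels of 10 genes at e16.5, in CPM (y axis, linear from 0), in heterozygous (blue) and knockout (red) libraries; points are libraries, lines the means and bars the SD of 3 libraries. In each panel the knockout points lie wholly above (Fsd1l, Gpr179, Impg2, Cyp4a12b, Phf11b) or wholly below (Zeb2, Saraf, Dctd, Inhba, Vcan) the heterozygous points, and none of the 10 genes passed the edgeR test. Phf11b was chosen after its values were seen and the others from genes without overlap, so the separation follows from that choice.

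On the lower side, among genes chosen in the same way as Fsd1l, the smallest p belonged to Zeb2, a transcription factor of mesenchymal cells. Zeb2 was at 16.7, 37.6 and 33.7 CPM in heterozygous and 10.8, 10.3 and 7.10 CPM in knockout libraries. Heterozygous replicate 1 sat between the other heterozygous libraries and the knockout. The log2 difference was -1.64 (SE 0.30; edgeR adjusted p = 0.428), and DESeq2 called it (adjusted p = 0.000354).

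The other genes named on the lower side did not pass the edgeR test either. Vcan, the matrix proteoglycan versican, was at 25.8, 53.5 and 74.3 CPM in heterozygous and 22.8, 20.4 and 22.2 CPM in knockout libraries. Cald1, the actin-binding protein caldesmon, was at 17.5, 52.0 and 48.4 CPM against 16.7, 15.3 and 15.9 CPM. Inhba, which encodes a subunit of activin A, was at 14.5, 47.4 and 31.8 CPM against 8.50, 13.1 and 11.1 CPM. In all 3 genes heterozygous replicate 1 was the lowest of its group and near the knockout range, and none passed (edgeR adjusted p = 0.629). DESeq2 called Vcan, Cald1 and Inhba (adjusted p = 0.0312, 0.0411 and 0.0135). Dtx4 (a ubiquitin ligase of the Deltex family), Bsn (a presynaptic scaffold protein), Nynrin and Phactr2 had log2 differences of -1.60, -1.27, -1.21 and -0.74, with the same edgeR adjusted p. DESeq2 called Dtx4 (adjusted p = 0.0113) and not Bsn, Nynrin or Phactr2.

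The markers of stromal cells moved with these genes. Of 22 tested markers of peritubular and interstitial stroma, 19 were lower in the knockout, 13 of them at an unadjusted p under 0.05 and 0 at the adjusted threshold of the edgeR test, against 4.85% of all genes at that unadjusted p. The median log2 difference was -0.58, beside -0.01 over all genes tested. Col1a2, a collagen gene chosen after its values were seen, was at 9.33, 50.4 and 45.3 CPM in heterozygous and 8.90, 15.7 and 14.1 CPM in knockout libraries. Dcn, the matrix protein decorin, was at 2.27, 10.9 and 11.7 CPM against 2.36, 2.12 and 2.49 CPM. Heterozygous replicates 2 and 3 held the high values and replicate 1 did not. The summed level of the 24 stroma markers was 643 to 830 CPM in heterozygous and 548 to 689 CPM in knockout libraries, with no marker at 0 in all of them.

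Without heterozygous replicate 1, edgeR called 25 genes, 4 higher and 21 lower, and the lower ones included the stroma markers Col1a2, Col3a1 and Dcn beside Zeb2, Vcan, Cald1 and Inhba. The part of somatic cells in the values of Zeb2, Vcan, Cald1 and Inhba was not tested. In sorted bulk samples, fewer cells of a type and less RNA per cell cannot be told apart.

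Markers of Sertoli and Leydig cells had lower medians as well. Sertoli cell markers had a median log2 difference of -0.48 (-0.31 without knockout replicate 3), with 4 of 14 tested members positive, and their sum was 81.4 to 90.1 CPM in heterozygous and 62.0 to 72.4 CPM in knockout libraries. Kitl, the ligand of the KIT receptor, was at 4.79, 4.67 and 4.18 CPM against 3.39, 1.49 and 1.68 CPM (edgeR adjusted p = 0.629). Leydig cell markers had a median of -0.48 over 9 tested members, but this rested on heterozygous replicate 2, where the steroid enzyme genes Hsd3b1 and Cyp17a1 reached 48.2 and 19.2 CPM, and the median was -0.06 without that library. Markers of endothelium, red blood cells and epithelium had medians of -0.27, -0.08 and -0.18, and markers of macrophages one of 0.11. The endothelial sum went the other way, at 384, 388 and 371 CPM in heterozygous and 443, 404 and 413 CPM in knockout libraries. The epithelial sum overlapped between genotypes, at 159, 119 and 104 CPM against 138, 159 and 136 CPM. The endothelial, red blood cell and macrophage medians changed sign when 1 library was left out, with 0.17, 0.11 and -0.16 without heterozygous replicates 3, 2 and 1. No gene of these lists passed the edgeR test.

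Markers of germ cells went the other way, with 9 of 10 tested members positive and a median log2 difference of 0.34, which lay between 0.20 and 0.38 when any 1 library was left out. Piwil2, which encodes the PIWI protein MILI, was at 780, 675 and 784 CPM in heterozygous and 955, 948 and 903 CPM in knockout libraries. The groups did not overlap, and the log2 difference of 0.33 (SE 0.12) did not pass (edgeR adjusted p = 0.629). Dazl, an RNA-binding regulator of germ cells, was the 1 negative member, with a log2 difference of -0.10. The germ marker sum was 5279 to 6556 CPM in heterozygous and 6319 to 6877 CPM in knockout libraries.

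The piRNA pathway showed no called gene at e16.5, and most of its members had slightly higher values in the knockout. Of 26 tested members 22 were positive, against 8004 of 16384 genes, and the median log2 difference was 0.20, or 0.11 without heterozygous replicate 3. All knockout libraries lay above all heterozygous ones for 6 of the 26 members, against 6.19% of genes. Exd1, a cofactor of piRNA biogenesis, was at 20.8, 16.8 and 13.8 CPM in heterozygous and 30.9, 33.3 and 24.1 CPM in knockout libraries (log2 difference 0.78, SE 0.22; edgeR adjusted p = 0.629). Tex19.1, a germ cell gene that restrains retrotransposons, was at 215, 203 and 144 CPM against 270, 285 and 229 CPM (0.48, SE 0.16; edgeR adjusted p = 0.629). Btbd18, which acts at piRNA precursor genes in meiosis and was chosen after its values were seen, had a log2 difference of 0.44 (SE 0.16; edgeR adjusted p = 0.629).

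Gtsf1, a small partner of PIWI proteins that their cleavage activity needs, was at 69.1, 60.5 and 52.1 CPM in heterozygous and 78.0, 91.9 and 86.5 CPM in knockout libraries. The groups did not overlap, and the log2 difference was 0.50 (SE 0.15; edgeR adjusted p = 0.629). At e18.5 the order was the opposite: 72.0, 87.8 and 97.9 CPM in heterozygous and 29.6, 27.9 and 26.7 CPM in knockout libraries, where Gtsf1 fell by 1.61 on the log2 scale (edgeR adjusted p = 5.58e-06). The knockout effect differed between the ages by -2.14 (SE 0.23; edgeR interaction test, adjusted p = 4.04e-05). Gtsf1 was the only 1 of 26 tested piRNA pathway members with a called difference between the ages, against 77 of 18652 genes (0.413%).

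No gene of the other silencing systems passed the edgeR test. The DNA methylation machinery had 11 of 20 tested members positive and a median log2 difference of 0.03, which turned to -0.03 without knockout replicate 2. Dnmt3l, the cofactor of the de novo DNA methyltransferases, was at 97.7, 99.0 and 97.0 CPM in heterozygous and 111, 107 and 117 CPM in knockout libraries (log2 difference 0.19, SE 0.12; edgeR adjusted p = 0.688). Mbd1, which binds methylated DNA, had the smallest p of the list, on the lower side, with a log2 difference of -0.63 (SE 0.20; edgeR adjusted p = 0.629). Of 28 tested genes for heterochromatin and histone-based silencing 26 were positive, against 8004 of 16384 genes, with a median of 0.17, or 0.06 without heterozygous replicate 3. Among them Daxx, a histone chaperone, and Setdb1, a histone H3 lysine 9 methyltransferase, had log2 differences of 0.61 and 0.42 (edgeR adjusted p = 0.629 and 0.636).

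The genes that steer fetal male germ cells gave a similar picture. Nanos2, the RNA-binding regulator of male germ cell fate, was at 7.23, 5.59 and 7.69 CPM in heterozygous and 8.50, 11.6 and 13.7 CPM in knockout libraries (log2 difference 0.72, SE 0.27; edgeR adjusted p = 0.629). Fate regulators had a median of 0.10 over 14 tested genes, which turned to -0.04 without knockout replicate 2. Genes of pluripotency and primordial germ cells had a median of 0.25 over 22 (0.66 without heterozygous replicate 1 and 0.08 without heterozygous replicate 3), with Pou5f1, the pluripotency factor OCT4, at 14.2, 13.3 and 12.5 CPM against 13.1, 23.0 and 23.2 CPM (edgeR adjusted p = 0.641). Genes of spermatogonial stem and progenitor cells had a median of 0.08 over 23 and meiotic prophase genes one of -0.07 over 33. Hormad1, a protein of meiotic chromosome axes, was at 165, 176 and 179 CPM against 140, 147 and 137 CPM (log2 difference -0.29, SE 0.12; edgeR adjusted p = 0.636). No gene of these 4 lists passed. Some share members with the germ cell markers: Dnd1 among fate regulators, Pou5f1 among pluripotency genes and Rhox10 among stem and progenitor genes.

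Genes of cell proliferation had a median log2 difference of 0.16, with 25 of 31 positive. Omitting heterozygous replicate 3 gave 0.04, and omitting heterozygous replicate 1 gave 0.33. Inhibitors of cell division, p53 targets, and recombination repair genes had medians of 0.03, 0.05 and 0.05, and interferon response genes one of -0.003. Of 41 tested imprinted genes 26 were negative and 7 had an unadjusted p under 0.05 on the lower side, against 4.85% of all genes, with 0 passing the adjusted threshold of the edgeR test. Gatm, an enzyme of creatine synthesis, was at 20.9, 31.0 and 34.6 CPM in heterozygous and 18.9, 13.6 and 12.8 CPM in knockout libraries. Plagl1, a growth-regulating zinc finger gene, was at 33.7, 74.8 and 87.3 CPM against 43.7, 23.3 and 22.3 CPM, and its groups overlapped. As for Col1a2, heterozygous replicate 1 was the lowest of its group in both.

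Immediate early and stress genes had a median of -0.09 over 24 (0.05 without knockout replicate 3, and 0.12 with the stroma marker level as a covariate), with Fosl2, Dusp1 and Myc, all transcriptional or signalling regulators, at an unadjusted p under 0.05 on the lower side and none passing the edgeR test (adjusted p = 0.629, 0.639 and 0.641). Zinc finger genes had a median of 0.06 over 326, olfactory receptors -0.06 over 64, vomeronasal receptors -0.14 over 33 and reproductive homeobox genes 0.15 over 7. Of 26 cleavage-stage genes measured 5 were tested, with a median of 0.01. The medians of stem and progenitor, recombination, division inhibitor, p53, interferon, zinc finger, olfactory receptor and cleavage-stage genes also changed sign when some single library was left out.

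Genes of cytoplasmic ribosomal proteins had mostly higher values in the knockout. Of 77 tested members 73 were positive, with a median log2 difference of 0.28 (0.16 without knockout replicate 3), and the knockout libraries lay wholly above the heterozygous ones for 20 members, against 6.19% of genes. Rpl13a was at 90.4, 84.0 and 61.5 CPM in heterozygous and 107, 109 and 124 CPM in knockout libraries (log2 difference 0.53, SE 0.16). Rps18 was at 36.0, 27.8 and 29.5 CPM against 48.5, 42.6 and 44.3 CPM (0.53, SE 0.17). Neither passed (edgeR adjusted p = 0.629), and 0 of the 77 did. The sum over the list was 5647, 5139 and 4815 CPM in heterozygous and 5791, 6144 and 6342 CPM in knockout libraries, and the share of all counts that lay in repeats was 51.1%, 57.5% and 59.3% against 51.5%, 45.3% and 54.3% in the same libraries. Heterozygous replicate 3, with the lowest ribosomal protein sum, had the highest repeat share. Knockout replicate 3, with the highest sum, had the highest repeat share among knockout libraries. The part of library composition in the ribosomal values was not tested.

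**Figure D2:**
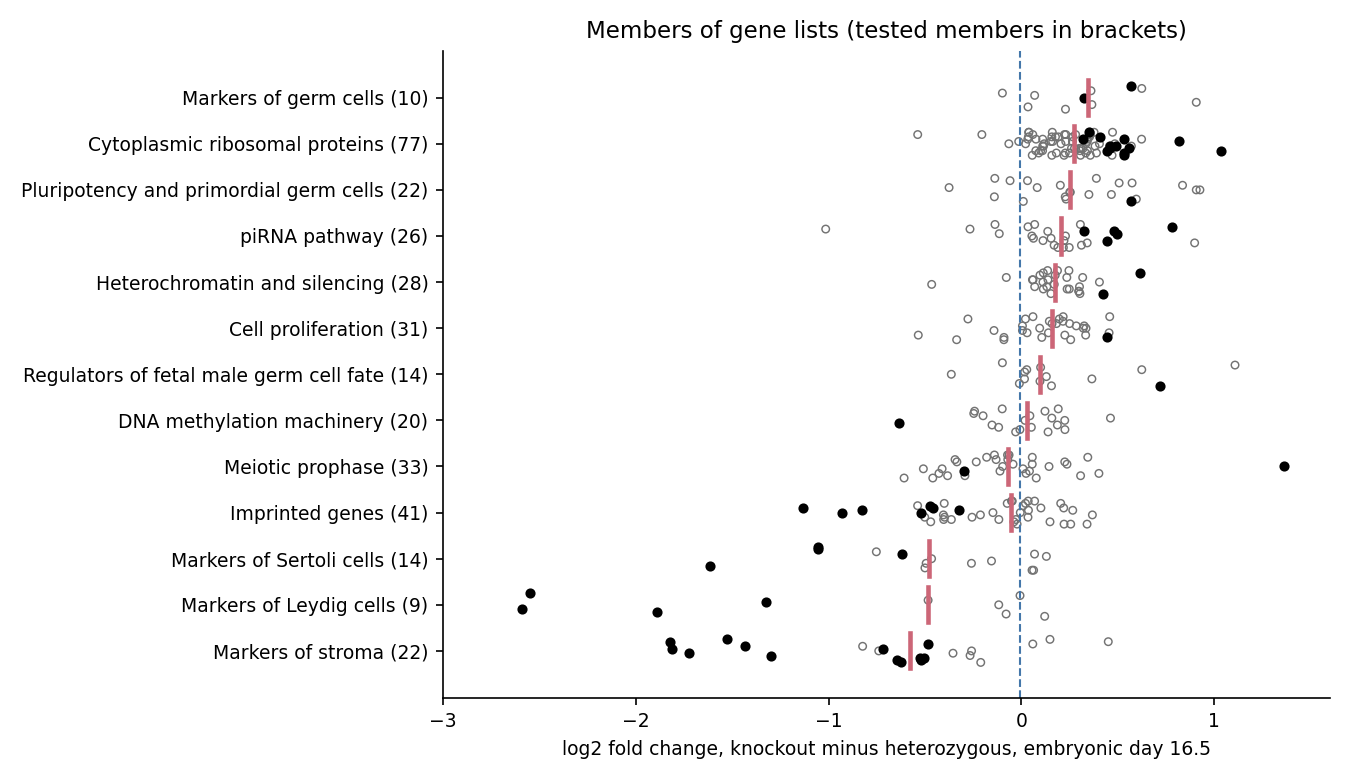
Log2 fold change, knockout minus heterozygous, of each tested member (circles) of 13 gene lists at e16.5, with the list median (red bar) and the median of all genes (dashed blue line, -0.01). Filled circles have an unadjusted p under 0.05 in the edgeR test, and no member passed the adjusted threshold. Medians run from 0.34 for germ cell markers down to -0.58 for stroma markers.

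Neighbours of Tex15 on its chromosome were examined around the targeted gene, with gene order taken from the RefSeq annotation of GRCm38.p6. This window was chosen after values had been seen. Of 40 protein-coding neighbours, 20 on each side, 35 were tested, with a median log2 difference of -0.03, and 0 passed edgeR. At an unadjusted p under 0.05, 4 were lower and 1 higher, against 4.85% and 2.87% of all genes. The nearest 50 on each side held 80 tested genes, of which 6 were lower and 3 higher at that p. The nearest of the 4 lower ones was Gsr (glutathione reductase), the third gene on one side, at 158, 134 and 109 CPM in heterozygous and 97.8, 105 and 100.1 CPM in knockout libraries (log2 difference -0.40; edgeR adjusted p = 0.629). Saraf, a regulator of calcium entry that lies 10 genes from Tex15, was at 13.2, 21.7 and 18.8 CPM against 8.11, 7.37 and 3.51 CPM. Its log2 difference was -1.50 (SE 0.32; edgeR adjusted p = 0.629), DESeq2 called it (adjusted p = 0.0103), and at e18.5 it was -0.93 (edgeR adjusted p = 0.0892). The others were Nrg1, which encodes the growth factor neuregulin 1 and whose genotypes overlapped, and Dusp26, a phosphatase gene. Gsr and Dusp26 fell at e18.5, by 0.64 and 0.82 on the log2 scale (edgeR adjusted p = 0.0171 and 0.0340). Dctd, the deoxycytidylate deaminase gene on the same chromosome, 83 genes away, was at 47.8, 80.0 and 90.3 CPM against 34.5, 41.3 and 40.8 CPM at e16.5 (edgeR adjusted p = 0.629) and fell by 1.204 on the log2 scale at e18.5 (adjusted p = 0.000321).

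Repeat names are the entries under which genomic copies of an element are pooled, so each value sums over many copies. Of 1117 names tested, 3 passed (0.269%): the IAP long terminal repeat IAPLTR1_Mm was higher, and the DNA transposon FordPrefect_a and the glycine transfer RNA name tRNA-Gly-GGG were lower (0.0895% and 0.179% of names in those directions). At an unadjusted p under 0.05, 7 names were higher (0.627%) and 76 lower (6.8%), together 7.43%. The knockout libraries lay above the heterozygous ones for 6 names (0.537%) and below them for 134 (12%). The median over all names was -0.27 on the log2 scale, so most names were slightly lower against genes. Scaled on the repeat rows themselves, the median was -0.01, and with own totals it was -0.03. The share of counts in repeats was lower in the knockout by 5.55 percentage points (50.4 ± 4.60% against 55.9 ± 4.31%, SD, n = 3 each; exact permutation test, two-sided p = 0.3, where 0.1 is the smallest possible).

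IAPLTR1_Mm was at 101, 126 and 83.0 CPM in heterozygous and 192, 174 and 222 CPM in knockout libraries. The lowest knockout library lay above the highest heterozygous one, and IAPLTR1_Mm rose by 0.93 on the log2 scale (SE 0.20, 1.90-fold; edgeR adjusted p = 0.00387). The adjusted p was 0.427 when heterozygous replicate 3 was omitted, 0.194 when knockout replicate 1 was, and 0.0551 when knockout replicate 3 was, and the difference stayed between 0.79 and 0.95. The rise was larger at e18.5, from 45.1, 52.6 and 53.5 CPM to 206, 178 and 196 CPM (log2 difference 1.94; edgeR adjusted p = 9.02e-15), and the difference between the ages passed (0.99, SE 0.28; edgeR interaction, adjusted p = 0.00783).

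IAPEz-int, the internal region of the IAP elements that carry this kind of terminal repeat, was at 623, 724 and 556 CPM in heterozygous and 1024, 901 and 1204 CPM in knockout libraries. The genotypes did not overlap, yet the log2 difference of 0.72 (SE 0.20) missed the threshold (edgeR adjusted p = 0.0783). It passed when scaled on the repeat rows (adjusted p = 0.00977), with own totals (0.0141), by DESeq2 (0.00876), and without heterozygous replicate 1 (0.0429) or knockout replicate 2 (0.00839). It did not pass with no filter on low counts (edgeR adjusted p = 0.0662) or with a block for replicate number (0.429). Nor did it pass without heterozygous replicates 2 or 3 (edgeR adjusted p = 0.221 and 0.773) or knockout replicates 1 or 3 (0.416 and 0.177). IAPEz-int rose at e18.5 by 1.07 (edgeR adjusted p = 6.04e-06), and the difference between the ages did not pass (0.33, SE 0.26; edgeR interaction, adjusted p = 0.401).

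None of the other IAP names passed the edgeR test. The 14 remaining tested names ran from -0.43 to 0.31 on the log2 scale, 2 of them positive, and the genotypes overlapped for all 14. With scaling on the repeat rows the median over all 16 IAP names moved from -0.12 to 0.14. Their standard errors were 0.19 to 0.24. IAPLTR1a_Mm, a close relative by name, was at 83.6, 94.1 and 76.4 CPM against 98.2, 79.9 and 102 CPM (log2 difference 0.14, SE 0.20; edgeR adjusted p = 0.583). IAPLTR2b, another IAP terminal repeat, was at 195, 297 and 254 CPM against 187, 176 and 225 CPM (-0.34, SE 0.20; edgeR adjusted p = 0.370). RLTR4_MM-int and its terminal repeat RLTR4_Mm, from a retrovirus of the murine leukaemia virus kind, had higher values that did not pass (log2 differences 0.44 and 0.58; edgeR adjusted p = 0.370 for both), and both rose at e18.5 (1.38 and 1.04; adjusted p = 8.08e-09 and 0.00132).

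No young L1 name, from the subfamilies that still hold mobile copies, passed the test at e16.5. All 6 had log2 differences between -0.27 and -0.05, with standard errors of 0.16 to 0.19, and their genotypes overlapped. L1Md_T was at 7284, 8975 and 8706 CPM in heterozygous and 9529, 6547 and 8013 CPM in knockout libraries. L1Md_A was at 3596, 4652 and 4476 CPM against 4053, 3156 and 3340 CPM. Neither passed (edgeR adjusted p = 0.812 and 0.370), and with scaling on the repeat rows L1Md_T was 0.21 and L1Md_A 0.004 higher, and the median over the 6 names was 0.08. MusD and ETn names, retroviruses that resemble IAP in structure, lay between -0.36 and 0.02, and MERVL names between -0.26 and -0.18, and the MusD and ETn median of -0.05 became 0.20 with scaling on the repeat rows. MMETn-int was at 1059, 1319 and 1369 CPM against 1290, 972 and 1350 CPM (-0.05, SE 0.19; edgeR adjusted p = 0.832).

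Abundant names of older groups followed the median of all repeats. Older L1 names had a median log2 difference of -0.29 over 100 names, RLTR and RMER terminal repeats -0.25 over 142, MT, ORR1 and MLT names -0.26 over 110, SINEs -0.22 over 36 and DNA transposons -0.25 over 93. B3, an abundant SINE, was at 57205, 66888 and 63595 CPM in heterozygous and 53953, 47885 and 59322 CPM in knockout libraries (edgeR adjusted p = 0.370). FordPrefect_a was at 4.79, 5.38 and 9.21 CPM against 2.52, 2.90 and 2.56 CPM (log2 difference -1.28; edgeR adjusted p = 0.0406). tRNA-Gly-GGG was at 2.35, 4.27 and 3.70 CPM against 1.26, 0.941 and 1.098 CPM (-1.63; edgeR adjusted p = 0.0276). Both were scarce, and both calls were lost with scaling on the repeat rows (adjusted p = 0.250 and 0.124) and by DESeq2 (0.0692 for both).

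The table of repeat families, a coarser grouping with its own estimated counts, names 52 families, of which 51 were tested. In it 0 passed the edgeR test (0%) and 2 were lower at an unadjusted p under 0.05 (3.92%). The family medians were close to those of the names, at -0.22 on the log2 scale. The L1 family was at 219945, 285907 and 280610 CPM in heterozygous and 239684, 192545 and 246368 CPM in knockout libraries (-0.21, SE 0.15; edgeR adjusted p = 0.434). ERVK, the family of IAP, MusD and ETn elements, was at 67488, 84600 and 83498 CPM against 74728, 62617 and 83627 CPM (-0.09, SE 0.16; edgeR adjusted p = 0.618).

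**Figure D3:**
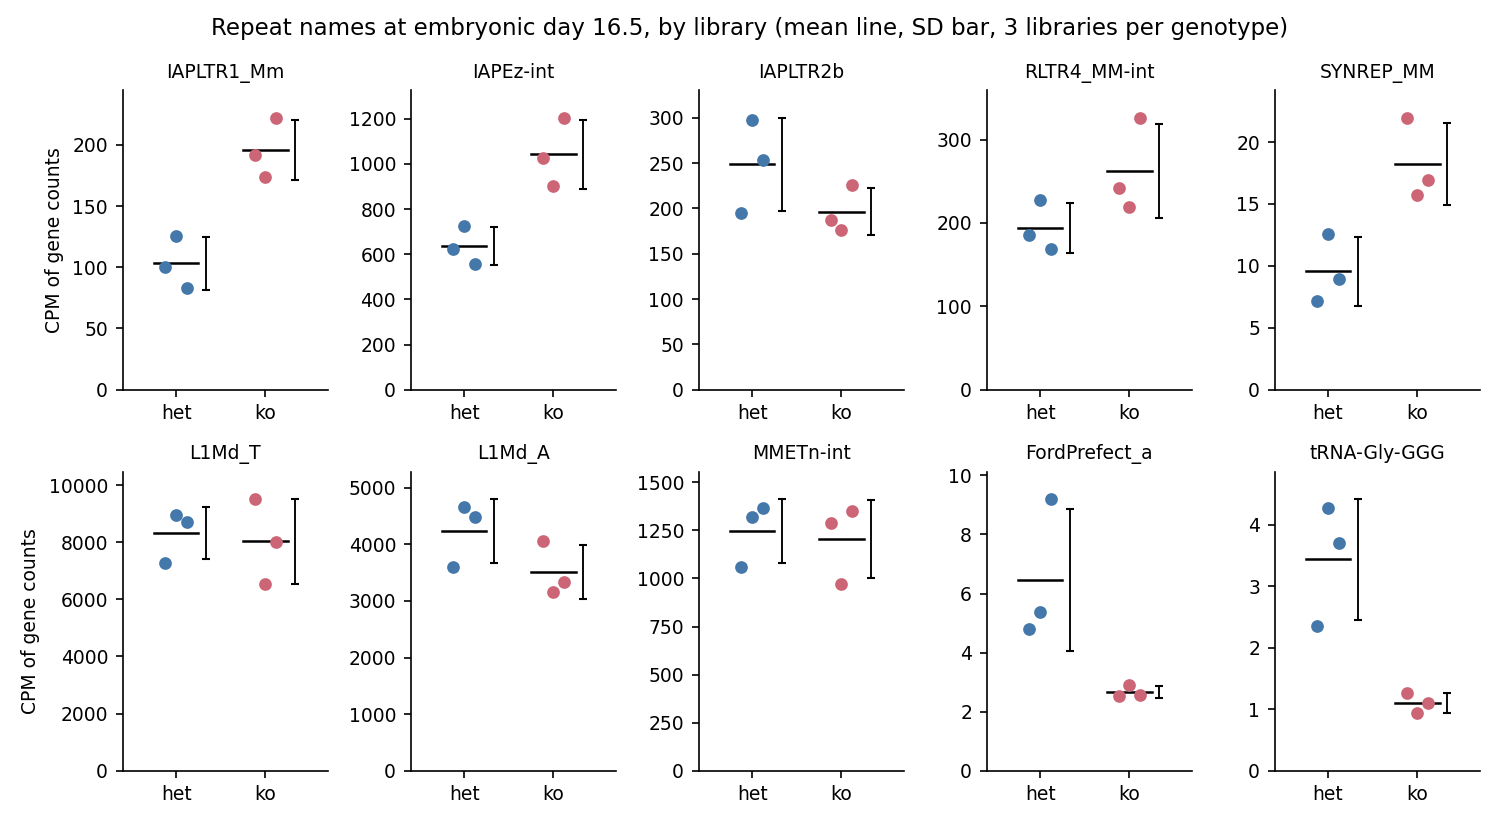
Levels of 10 repeat names at e16.5, in CPM (y axis, linear from 0), in heterozygous (blue) and knockout (red) libraries; points are libraries, lines the means and bars the SD of 3 libraries. IAPLTR1_Mm, IAPEz-int and SYNREP_MM lie wholly above, FordPrefect_a and tRNA-Gly-GGG wholly below, and the other 5 overlap between genotypes.

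Of 6 tested satellite names 1 was positive and 5 were negative, with a median log2 difference of -0.19 beside -0.27 over all names. SYNREP_MM was at 7.15, 12.6 and 8.93 CPM in heterozygous and 21.97, 15.8 and 17.0 CPM in knockout libraries (log2 difference 0.94, SE 0.27; edgeR adjusted p = 0.0993). At e18.5 it fell instead, by 0.97 (edgeR adjusted p = 0.00752), and it was the 1 of 1145 names called for a lower knockout effect at e18.5 than at e16.5 (-1.93, SE 0.37; edgeR interaction, adjusted p = 1.29e-05).

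GSAT_MM, the major satellite repeated beside mouse centromeres, was chosen after its values were seen. It was at 532, 933 and 12466 CPM in heterozygous and 113, 27.0 and 68.8 CPM in knockout libraries. The lowest heterozygous library lay above the highest knockout library, but the spread within each genotype was wide, above all through heterozygous replicate 3. The log2 difference was -6.06 (SE 1.87; edgeR unadjusted p = 0.0317, adjusted p = 0.370) and -3.40 without heterozygous replicate 3 (adjusted p = 0.773). At e18.5 the levels were 30497, 14415 and 28147 CPM in heterozygous and 4030, 1115 and 1296 CPM in knockout libraries, again without overlap (log2 difference -3.50; edgeR adjusted p = 0.0979). In the family table the Satellite family was at 2456, 2589 and 4583 CPM in heterozygous and 2220, 2388 and 2233 CPM in knockout libraries at e16.5 (-0.49, SE 0.19; edgeR adjusted p = 0.434). In heterozygous replicate 3 that family value is below the value of GSAT_MM alone, so the family table does not hold all counts of this name, and the tables are not comparable for it.

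**Figure D4:**
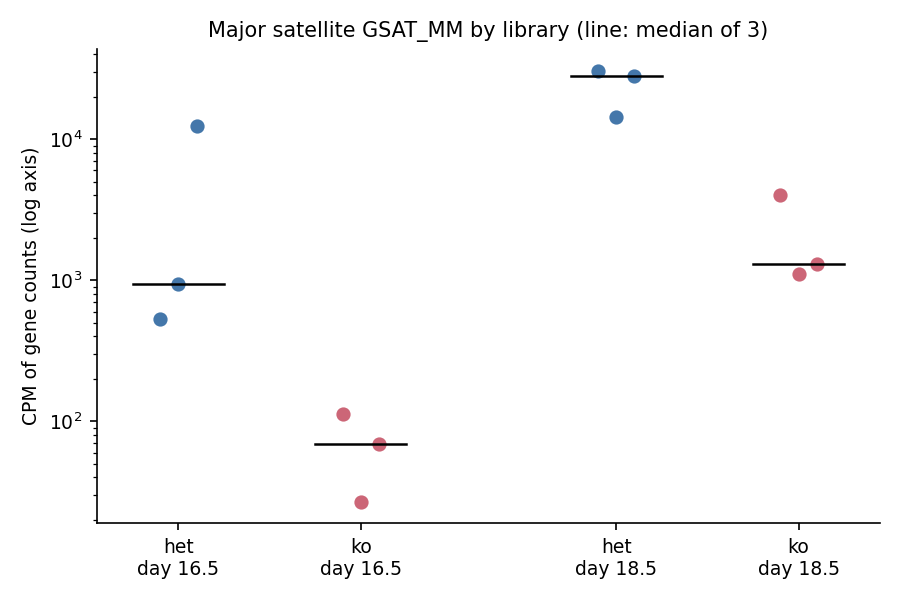
Level of the major satellite name GSAT_MM in each library, in CPM (y axis, log scale), in heterozygous (blue) and knockout (red) libraries at embryonic days 16.5 and 18.5; lines are medians of 3 libraries. At both ages every knockout library lies below every heterozygous one, and heterozygous replicate 3 at e16.5 stands at 12466 CPM.

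The e18.5 libraries show how far the later knockout state was present at e16.5. At e18.5, 373 of 18075 genes were higher in the knockout (2.06%) and 49 lower (0.271%) by the same test. Of the 299 higher ones that were tested at e16.5, 167 were positive, against 8004 of 16384 genes, and their median log2 difference was 0.07 at e16.5 beside 1.74 at e18.5. Omitting heterozygous replicate 1 gave a median of -0.03, and omitting knockout replicate 1 gave -0.06. At e16.5, 31 of the 299 had an unadjusted p under 0.05 on the higher side (2.87% of all genes) and 34 lay wholly above (6.19%), while 16 had such a p on the lower side (4.85%) and 13 lay wholly below (6.63%). Of 48 tested genes that were lower at e18.5, 27 were negative, with a median of -0.07, and Tex15 was the 1 called.

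Among the 31 were Phf11b, Olfr419, Apoh, Gpr179, Impg2, Cd93, Cyp4a12b and Irak2. Slc15a2, a peptide transporter gene, was at 26.2, 14.2 and 6.55 CPM in heterozygous and 39.6, 44.3 and 21.0 CPM in knockout libraries (edgeR adjusted p = 0.629). On the lower side Il5ra, the interleukin 5 receptor gene, was at 1.05, 1.22 and 6.08 CPM against 0.630, 0.0784 and 0 CPM (edgeR adjusted p = 0.629), and at e18.5 at 23.9, 34.2 and 28.7 CPM against 1.17, 2.27 and 2.79 CPM.

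For 77 of 18652 genes (0.413%) the knockout effect differed between the ages, with 68 more positive at e18.5 (0.365%) and 9 more negative (0.0483%). Tmc2, a channel gene of inner ear hair cells, was at 96.0, 133 and 127 CPM in heterozygous and 97.5, 79.5 and 98.0 CPM in knockout libraries at e16.5. At e18.5 it was at 31.8, 41.4 and 42.0 CPM against 214, 199 and 153 CPM, a change in effect of 2.64 (SE 0.23; edgeR interaction, adjusted p = 3.54e-06). Chl1, a cell adhesion gene, and Malrd1 also had a more positive effect at e18.5, with changes of 2.28 and 2.499 (adjusted p = 0.00369 and 0.00485).

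A more negative effect at e18.5 was found for Abca1, Insig1, Stard4, Fsd1l and Gin1, beside Gtsf1. Abca1, a cholesterol export pump, was at 111, 89.8 and 97.7 CPM in heterozygous and 123, 180 and 145 CPM in knockout libraries at e16.5. It was at 298, 311 and 286 CPM against 188, 131 and 135 CPM at e18.5 (difference of effects -1.59, SE 0.23; edgeR interaction, adjusted p = 0.00213). Insig1, which restrains sterol synthesis, and Stard4, a cholesterol carrier chosen after its values were seen, had differences of -1.35 and -1.73 (adjusted p = 0.0152 and 0.0317). At e16.5 neither passed, with log2 differences of 0.15 and 0.40 (edgeR adjusted p = 0.781 and 0.674). Fsd1l also turned, to 103, 80.6 and 74.8 CPM against 56.0, 53.6 and 53.5 CPM at e18.5 (difference of effects -1.44; edgeR interaction, adjusted p = 0.00213), as did Gin1, a gene derived from a retrotransposon integrase (-1.41; adjusted p = 0.00638).

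Repeat names of several groups also differed between the ages. The effect was higher at e18.5 for 92 of 1145 names (8.03%) and lower for 1 (0.0873%), which together are 8.12%. All 6 young L1 names, 13 of 16 IAP names and 4 of 5 MusD and ETn names were among the 92, as were 31 of 144 RLTR and RMER names and 18 of 100 older L1 names. Of the SINE and MERVL names, 0 of 36 and 0 of 7 were. Repeat names as a whole also moved against genes, with a median difference between the ages of 0.36 over all 1145 names. The older L1 median of 0.39 was close to that. The RLTR and RMER median was 0.50, and those of young L1, IAP and MusD and ETn names were 1.45, 1.11 and 1.26. L1Md_T was at 6392, 7291 and 14449 CPM in heterozygous and 22219, 26397 and 28795 CPM in knockout libraries at e18.5, and its effect differed from that at e16.5 by 1.49 (SE 0.25; edgeR interaction, adjusted p = 8.30e-07). IAPLTR4_I had the smallest p, with 37.9, 49.0 and 39.8 CPM against 71.8, 35.4 and 49.5 CPM at e16.5 and 14.3, 25.3 and 24.8 CPM against 139, 139 and 166 CPM at e18.5 (2.46, SE 0.30; adjusted p = 1.71e-13). At e18.5 itself 85 names were higher (7.52%) and 4 lower (0.354%). Of the 83 higher ones tested at e16.5, 14 were positive at e16.5, against 72 of 1117, with a median of -0.16 beside -0.27 over all names.

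**Figure D5:**
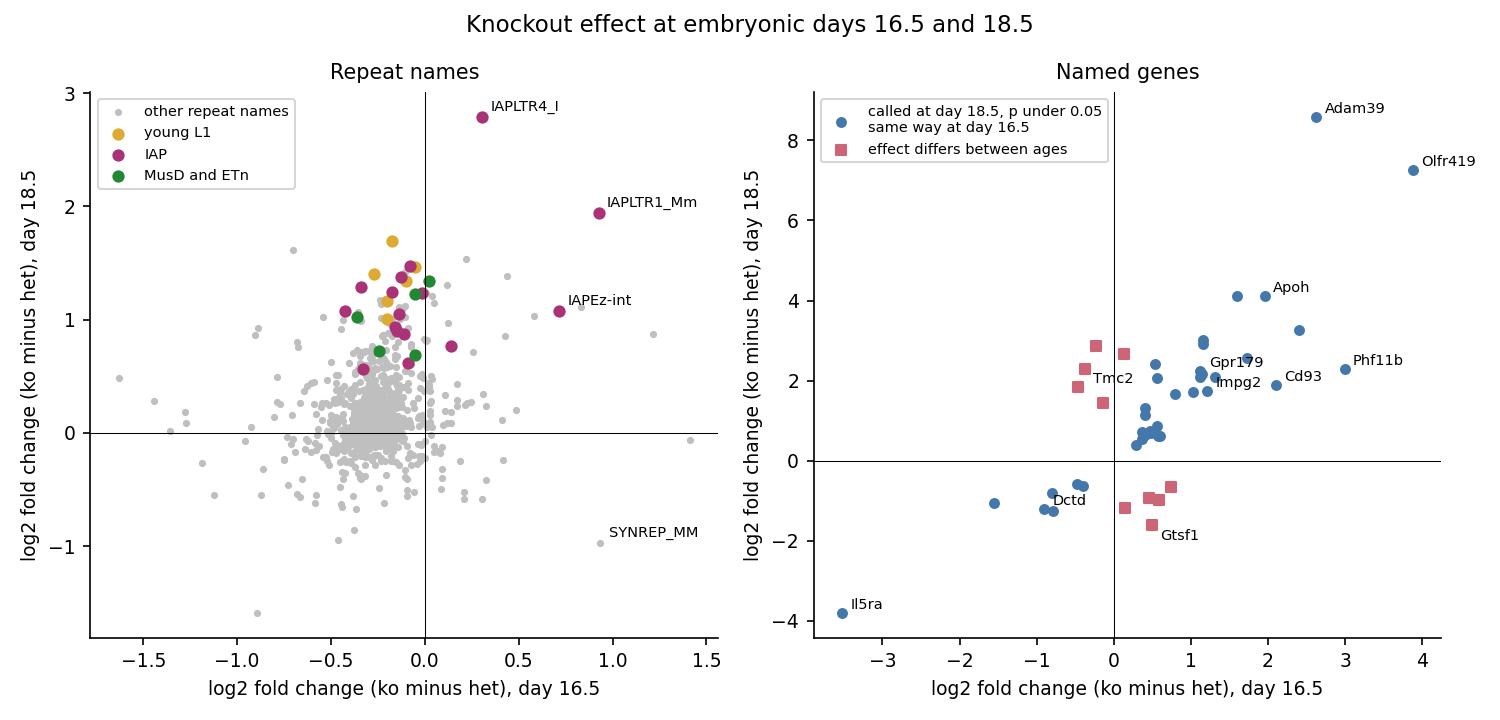
Log2 fold change, knockout minus heterozygous, at e16.5 (x axis) and e18.5 (y axis). On the left each point is 1 of the tested repeat names, except GSAT_MM at -6.06 and -3.50, which lies outside the axes, and most young L1, IAP and MusD and ETn names sit above 0 only on the y axis. On the right are genes chosen for the same direction at both ages (circles, Tex15 left out) or for a difference between the ages (squares), so their quadrants follow from that choice.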

How the data were processed

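RNA sequencing of sorted germ cells was analysed from the deposited tables. The deposited gene and repeat name tables hold raw counts. The repeat family table holds estimated counts that need not be whole, as deposited by the authors; these were rounded (66.0% were not whole), and its row with no family name, at most 3.59% of a library's total in that table, was left out. The submitters' processing notes name STAR, featureCounts, Bowtie and edgeR, and the mouse build mm9. Strand and multiply mapped reads are not given in the sources used here, so overlapping genes and near-identical copies (ribosomal protein and olfactory receptor genes among them) are uncertain. Gene rows were filtered (filterByExpr, minimum count 10, minimum total 15), scaled by TMM factors and tested with edgeR 4.0.16 (robust quasi-likelihood, R 4.3.3) on the 6 libraries, with Benjamini-Hochberg adjustment over all rows tested and a threshold of 0.05. Repeat rows used the gene library sizes and factors. The age interaction was fitted on the e16.5 and e18.5 libraries together. DESeq2 1.42.0 and limma 3.58.1 served as alternatives. The scripts were tested on simulated data.

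Members and lists were chosen with earlier results of these data known. Text names Tex15, the 10 genes per direction with the smallest p among those whose genotypes did not overlap and whose mean log2 CPM reached 3, and some of the 3 members of each list with the smallest p. It also names called and abundant repeats, the largest families, and genes and repeats from the age interaction. Phf11b, Apoh, Cd93, Gsr, Nrg1, Dusp26, Btbd18, Col1a2, Stard4, RLTR4_MM-int and GSAT_MM were added after their values were seen. P-values measure the spread between these libraries. A few single-gene results are not reported here.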

Additional observations from a re-analysis of the deposited data

Results flagged for a closer look

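The knockout effect, as a log2 fold change, differed between e18.5 and e16.5 for the results here, by the edgeR interaction test after adjustment over all rows. Differences are given as e18.5 minus e16.5.

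Among genes the effect was more negative at e18.5 for Gtsf1 (-2.14), Stard4 (-1.73), Abca1 (-1.59), Fsd1l (-1.44), Gin1 (-1.41) and Insig1 (-1.35). It was more positive for Dcn (3.53), the unnamed transcript genes A630010A05Rik (3.07) and 6820431F20Rik (1.56), Tmc2 (2.64), Malrd1 (2.499), the olfactory receptor gene Olfr695 (2.41), Chl1 (2.28), the steroid dehydrogenase gene Akr1c14 (2.12) and the lipid transfer gene Pitpnc1 (1.86).

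Among IAP names the effect was more positive at e18.5 for IAPLTR4_I (2.46), IAPLTR2b (1.61), IAPEY3-int (1.53) and IAPLTR1_Mm (0.99). Among young L1 names it was so for L1Md_Gf (1.85), L1Md_A (1.65), L1Md_T (1.49) and L1Md_F2 (1.34), and among MusD and ETn names for MMETn-int (1.26) and ETnERV2-int (0.94). RLTR4_MM-int (0.92), FordPrefect_a (1.43) and tRNA-Gly-GGG (2.09) also had a more positive effect at e18.5, and SYNREP_MM had a more negative one (-1.93).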

How the results depend on the processing

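With 3 libraries per genotype, many changes of 2-fold could go uncalled, and scarce transcripts rest on few counts. Of 2-fold changes put into simulated data, edgeR called 46.5% for genes at e16.5 and 12.5% for genes in the age interaction. It called 92% for repeat names and 100% for repeat families at e16.5, with simulated rows drawn independently of each other. The e16.5 gene count of 1 became 22 by DESeq2 and 2 with no filter, and 1 to 25 when 1 library was left out (25 without heterozygous replicate 1). The 3 repeat names became 1 with the replicate block (IAPLTR1_Mm), 1 with no filter, and 0 to 6 when 1 library was left out: leaving out heterozygous replicate 1 gave 6, heterozygous replicate 2 gave 1, and heterozygous replicate 3 or either of knockout replicates 1 and 3 gave 0. The family count of 0 became 1 with own totals and 0 to 1 when 1 library was left out, 1 being without heterozygous replicate 1. The 77 genes that differed between the ages became 197 by DESeq2, 80 with the replicate block and 31 to 254 when 1 library was left out, above 77 by more than 1.5 times without e16.5 heterozygous replicate 1 (254). They were below it by as much without e16.5 heterozygous replicate 2 (46), e16.5 knockout replicates 2 and 3 (31, 38), e18.5 heterozygous replicates 1 and 2 (35, 37) and e18.5 knockout replicates 1, 2 and 3 (36, 40, 49). The 93 repeat names became 99 with the replicate block and 45 to 133 when 1 library was left out, with 54, 45, 51 and 58 without e16.5 heterozygous replicates 2 and 3, e16.5 knockout replicate 2 and e18.5 heterozygous replicate 1. Libraries with the same replicate number were not the most alike. The same-number correlations of deviations over genes were -0.25, 0.08 and 0.08, and heterozygous replicate 1 correlated best with knockout replicate 2 (0.37). Deviations from a mean of 3 libraries are tied to each other, so these correlations cannot decide whether libraries of the same number shared a litter or batch. Some log2 differences at e16.5 turned sign, and the cause was not tested. With the stroma marker level as a covariate this held for Cyp17a1 (0.077), Klf1 (-0.10), Rhox9 (-0.39), Slc8a1 (-0.051) and Akr1c14 (-0.16). With limma voom and quality weights this held for Itgam (0.039). With repeat rows scaled by their own TMM factors this held for L1Md_F2 (0.065), L1Md_T (0.21), IAP-d-int (0.16), ETnERV2-int (0.018), MMETn-int (0.20), MT2A (0.055), MT2B (0.0073), RMER19B (0.099), MTD (0.014), MTC (0.040), B3 (0.037), B4A (0.012), MurSatRep1 (0.18), MMSAT4 (0.16), URR1A (0.025), URR1B (0.0062), L1Md_Gf (0.089), L1Md_A (0.0037), IAPEY3-int (0.17), L1 family (0.0040), ERVK family (0.12), Simple_repeat family (0.011) and Low_complexity family (0.019). With their own totals this held for L1Md_F2 (0.045), L1Md_T (0.19), IAP-d-int (0.14), MMETn-int (0.19), MT2A (0.037), RMER19B (0.082), MTC (0.023), B3 (0.020), MurSatRep1 (0.16), MMSAT4 (0.15), URR1A (0.0079), L1Md_Gf (0.069), IAPEY3-int (0.15), ERVK family (0.11) and Low_complexity family (0.0048). With 1 library left out, values spanned 0 for Cyp17a1 (-3.34 to 0.22), Itgam (-0.54 to 0.14), Malrd1 (-0.11 to 0.35), Slc8a1 (-0.17 to 0.60), Akr1c14 (-0.13 to 0.58), L1Md_T (-0.19 to 0.074), IAP-d-int (-0.31 to 0.058), MMETn-int (-0.15 to 0.078), MurSatRep1 (-0.14 to 0.011), IAPEY3-int (-0.22 to 0.10) and ERVK family (-0.19 to 0.0099). Of 2640 alternative values for 196 gene, repeat and list results, 2501 kept their direction and side of the threshold, 60 turned sign, 43 passed only under the alternative, 31 passed only in the original and 5 list medians moved. The alternatives on list medians and on genes called at e18.5 were chosen after seeing the data.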
